A study of Mus musculus with 9 samples.

Results

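The genes of oxidative phosphorylation were followed in neuroglial progenitors of the ventricular zone lining the third ventricle of the mouse brain. Members were the rows of the deposited expression table whose gene symbols name subunits of respiratory complexes I to V (Ndufa, Ndufb, Ndufc, Ndufs, Ndufv, Sdh, Uqcr, Cox4 to Cox8 and Atp5 symbols) or carry the mt- prefix of the mitochondrial genome. Ndufa4l2 was left out by rule, and no measured value entered the choice. The rule found 115 of the 18329 rows. Of these, 88 are nuclear-encoded (40 of complex I, 4 of complex II, 10 of complex III, 15 of complex IV and 19 of complex V) and 27 are mitochondrial (13 protein-coding genes, 2 ribosomal RNAs and 12 transfer RNAs). Among the nuclear rows 9 were set apart as pseudogenes or near copies of another member, such as Uqcrh-ps1 and Ndufs6b, whose reads may be shared with the parent gene. Of these, Ndufb1-ps is annotated as a long noncoding RNA. For Ndufb1-ps, Atp5c1-ps and Uqcrh-ps2 no parent with a sizeable shared sequence was found.

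Oxidative phosphorylation takes place in the inner mitochondrial membrane. Complexes I, III and IV pass electrons from NADH to oxygen and pump protons, complex II feeds in electrons from succinate, and complex V, the ATP synthase, uses the proton gradient to make ATP. Complexes I, III, IV and V are built from subunits of both genomes: the nuclear ones are transcribed singly from many chromosomes, whereas the mitochondrial ones are cut from long transcripts of a small circular genome, with transfer RNAs lying between most of them. Complex II is nuclear only.

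The study sequenced total RNA of 9 samples from Nestin-CFPnuc mice on a C57/BL6 background, taken on postnatal day 1 and left untreated. These mice make cyan fluorescent protein in the nucleus from the Nestin promoter, and cells were separated by fluorescence and by CD133, the surface protein encoded by Prom1. The groups are CD133+, Nestin+ and CD133+Nestin+, with 3 libraries each. Every library also carries a sort number from 1 to 3, which equals the passage number on its label, and each sort number holds 1 library of each population. The labels do not state what a sort number stands for beyond that, nor whether cells sorted on 1 marker lacked the other. Nothing in them states that the 9 samples were from different animals or cultures, and p-values here therefore measure a spread between samples that may be only technical.

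Prom1 lay between 39.3 and 58.1 CPM (counts per 1e+06 reads of the library) in the Nestin+ libraries and between 116 and 182 CPM in the other 6, and Nes between 39.5 and 57.3 CPM in CD133+ and between 157 and 212 CPM elsewhere, so both markers followed the labels. The neural stem and radial glia markers summed to 2888 to 17694 CPM. Markers of other cells were present in each population. Microglia genes summed to 1005 to 2915 CPM in CD133+ and to 38.2 to 343 CPM in the other 6 libraries. Oligodendrocyte precursor genes were highest in Nestin+, at 685 to 1278 CPM, against 70.5 to 151 in CD133+ and 125 to 516 in CD133+Nestin+. Ependymal genes summed to 1473 to 2958 CPM in CD133+, 309 to 394 in Nestin+ and 1599 to 1866 in CD133+Nestin+. The listed genes made up 65.9% to 87.6% of each library's CPM total, 87.3% to 87.6% at sort 1, 65.9% to 77.7% at sort 2 and 77.6% to 81.0% at sort 3. The CD133+Nestin+ library of sort 2 had the lowest value of all 9 libraries for 78 of the 87 nuclear members tested. The share of all genes that were lowest there was not counted. Its listed genes also made up the smallest part of a library total, 65.9%, so the count cannot be read as particular to these members.

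Mitochondrial RNA was abundant per base and nuclear subunits covered a wide range. All mitochondrial rows together took 1.48% to 3.99% of the listed reads. Per kilobase of annotated exon (the union of all annotated transcripts, which understates genes with long rare exons), mt-Atp6 and mt-Atp8, the membrane subunits of the ATP synthase, averaged 3392 and 3369 CPM per kb over the 9 libraries, and mt-Nd4l had the lowest level of the mitochondrial protein-coding genes at 186 CPM per kb. Among nuclear members the highest levels per kb were those of Cox6a1 (298) in complex IV, Ndufc2 (222) in complex I, Uqcr10 (212) in complex III, Atp5a1 (169) in complex V and Sdhd (130) in complex II. The lowest in those classes were Cox7a1 (1.46), Ndufb4 (3.92), Uqcrh-ps2 (12.2), Atp5g2 (2.03) and Sdhc (37.9). Ndufb4 is an uncertain value, since every stretch of 31 bases in the transcript of the near copy Ndufb4c, which is listed at 22.3 to 108 CPM, also occurs in Ndufb4.

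Mitochondrial levels carry the same doubt. Nuclear pseudogenes that copy mitochondrial genes are listed in the table, and Gm10925, Gm28437 and Gm28661 share all their 31-base stretches with mt-Atp6, mt-Co3 and mt-Co2. The mean level of Gm28437 was 2139 CPM and that of mt-Co3 2142 CPM. Listed copies also hold 98.1% of the 31-base stretches of mt-Nd3, 98.9% of those of mt-Nd4l and 29.6% of those of mt-Co1. The sources used here do not state how reads that match both were assigned. The levels of mt-Atp6, mt-Co2, mt-Co3, mt-Nd3, mt-Nd4l and, in part, mt-Co1 may be understated. Gm28439, which holds 62.8% of the stretches of mt-Nd4, is not listed, so its level cannot be set beside that of mt-Nd4.

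Nuclear-encoded subunits were lower in the sort 2 libraries than in the sort 1 libraries, in each population and in each complex. The 88 nuclear rows summed to 12902, 12741 and 13182 CPM in the CD133+, Nestin+ and CD133+Nestin+ libraries of sort 1. At sort 2 the sums were 9017, 7566 and 5174 CPM, which is 30.1%, 40.6% and 60.7% less, and at sort 3 they were 9880, 9145 and 9507 CPM. All 3 libraries of sort 1 lay above all 6 others, and the 3 values of sort 1 were close together.

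**Figure D1:**
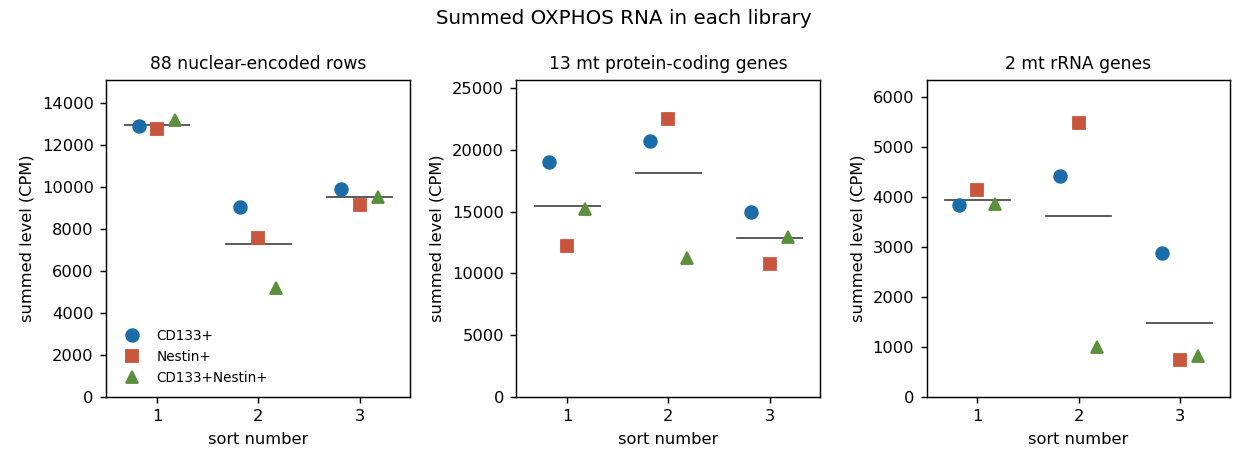
Summed CPM of the nuclear-encoded rows, the mitochondrial protein-coding genes and the mitochondrial rRNAs, by sort number; each point is 1 library, coloured by population, and each line the mean of the 3 libraries of a sort. The nuclear sums of sort 1 (12741 to 13182 CPM) lie above all others, whereas the mitochondrial sums of sort 1 lie among those of the other sorts.

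The test behind this was limma on log2(CPM + 1), with population and sort number as terms, over the 16143 genes that reached 1 CPM in 3 or more libraries, with Benjamini-Hochberg adjustment over all of them at 0.05. The 3 libraries of a sort number are its 3 populations, and same-numbered libraries deviated together. The p-values between sorts thus measure how unevenly the populations moved. They do not measure the spread between repeated sorts, since each sort number is a single unit here. Of the 88 nuclear rows 87 passed the filter, all except Cox7a1, and 20 of the 27 mitochondrial rows did (all 13 protein-coding genes, both rRNAs and 5 tRNAs). Between sort 2 and sort 1, 61 of the 87 nuclear members fell (70.1%) and 0 rose, against 8.98% of all genes tested that fell and 8.34% that rose. The median log2 difference was -0.91 for the nuclear members and -0.09 for all genes. In 83 of the 87 (95.4%) the sort 2 library was the lower one in all 3 populations, against 29.6% of all genes. By complex, 28 of 40 fell in complex I, 3 of 4 in complex II, 6 of 10 in complex III, 9 of 14 in complex IV and 15 of 19 in complex V. Without the 9 rows set apart as pseudogenes or near copies the count was 54 of 78.

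Ndufs8, an iron-sulfur subunit of complex I (ENSMUSG00000059734.7, GRCm38 chr19:3908863-3912774, minus strand), had 172, 179 and 162 CPM at sort 1 in CD133+, Nestin+ and CD133+Nestin+. At sort 2 it had 71.7, 89.8 and 37.1 CPM and at sort 3 106, 102 and 92.0 CPM. The 3 sorts did not overlap, and the log2 difference of sort 2 from sort 1 was -1.44 ± 0.24 (SE, limma adjusted p = 0.0083). Ndufa11, a membrane-arm subunit (chr17:56717767-56722141, plus strand), went from 155, 133 and 152 CPM at sort 1 to 74.3, 75.3 and 48.5 CPM at sort 2 (-1.16 ± 0.20, limma adjusted p = 0.00917). The accessory subunits Ndufa13 (-1.15 ± 0.21, limma adjusted p = 0.0109) and Ndufa3 (-1.20 ± 0.23, limma adjusted p = 0.0132) fell alike. Ndufa4, counted here by its symbol although its protein is now assigned to complex IV, fell by 1.08 on the log2 scale (limma adjusted p = 0.0264). Of complex II, Sdhb, the iron-sulfur subunit, fell from 237 ± 20.3 to 136 ± 29.6 CPM (SD, n = 3 libraries a sort; -0.82 ± 0.18, limma adjusted p = 0.0194), as did the membrane anchors Sdhc and Sdhd. The call of Sdhd (-0.84 ± 0.23, limma adjusted p = 0.0376) was lost in 8 of 13 alternatives, 7 of them with 1 library left out (-1.05 to -0.53). The flavoprotein Sdha had a log2 difference of -0.56 ± 0.19, which did not pass (limma adjusted p = 0.0695).

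In complex III the small subunit Uqcr10 had 172, 183 and 191 CPM at sort 1 and 91.9, 90.3 and 35.0 CPM at sort 2 (-1.44 ± 0.28, limma adjusted p = 0.0133). Uqcr11, Uqcrq and Uqcrh fell by 1.08, 1.07 and 1.07 on the log2 scale. Uqcrfs1, the Rieske iron-sulfur protein, had 118, 66.5 and 108 CPM at sort 1, 91.4, 61.2 and 88.2 CPM at sort 2 and 100.4, 120 and 137 CPM at sort 3. It too was lowest at sort 2 in each population, but by less (-0.26 ± 0.22, limma adjusted p = 0.429). In complex IV, Cox8a fell from 172 ± 1.84 to 85.5 ± 14.6 CPM (-1.01 ± 0.18, limma adjusted p = 0.00958). Cox6a1 (chr5:115345642-115348981, minus strand) went from 337, 305 and 293 CPM to 174, 164 and 80.4 CPM (-1.23 ± 0.23, limma adjusted p = 0.0115), and Cox6b1 and Cox4i1, the ubiquitous isoforms of their subunits, fell by 1.09 and 1.06 on the log2 scale. In complex V, Atp5d, the delta subunit of the central stalk, had 186 ± 8.48 CPM at sort 1, 93.4 ± 8.58 CPM at sort 2 and 124 ± 7.79 CPM at sort 3 (sort 2 from sort 1 -0.99 ± 0.16, limma adjusted p = 0.00838), so its 3 sorts were separated by more than the spread within each. The other stalk subunits Atp5o, Atp5h and Atp5e fell by 1.14, 1.03 and 1.10.

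**Figure D2:**
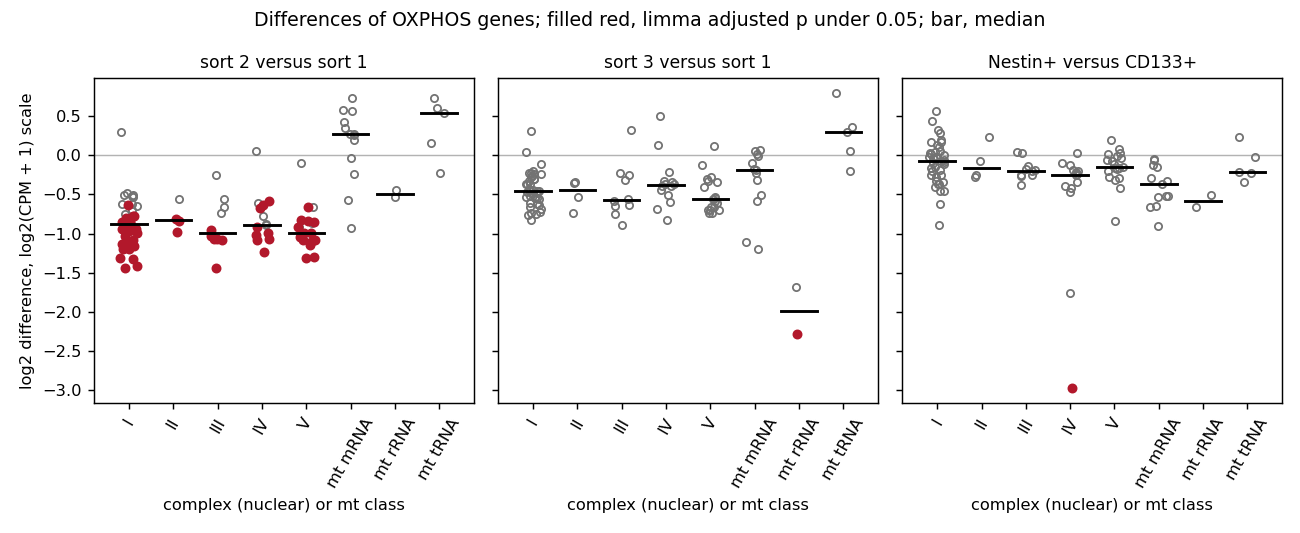
Log2 differences on the log2(CPM + 1) scale of the 107 members tested, by complex for nuclear subunits and by class for mitochondrial genes; each circle is 1 gene, filled red where the limma adjusted p is under 0.05, and each bar is the class median. In sort 2 versus sort 1, 61 nuclear subunits are filled and lie below 0 while most mitochondrial mRNAs lie above it; in Nestin+ versus CD133+ only Cox6b2 is filled.

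The number of calls depended on the libraries at hand more than the size of the difference did. With the sort 1 library of CD133+Nestin+ left out, 0 nuclear members passed (61 had an unadjusted limma p under 0.05), and with the sort 1 library of Nestin+ left out 2 passed, although the median difference stayed at -0.77 and -0.95. Without the sort 1 library of CD133+ 38 passed. The share of all genes that fell in these leave-out fits was not set beside the counts. A loss of calls among these members thus cannot be told from a general one. Scaling each library to the listed genes other than mt- genes left 31 called, all among the 61, with a median of -0.61. That scaling shifted the all-gene median by 0.27 and turned their calls from 1347 higher and 1450 lower into 2283 higher and 518 lower, so relative to all genes the nuclear members were 0.78 lower.

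The promoters of these subunits are shown for Cox6a1 and Ndufa11, which fell between sort 1 and sort 2, and for Cox6b2. Cox6b2 was the one member called between populations in the fit without sort number as a term. RefSeq promoter windows of GRCm38.p6, 250 bases before to 50 bases after a transcript start, were matched to 67 of the 88 nuclear rows and gave 72 windows. They were searched on both strands for the site of NRF1, a regulator of respiratory genes (GCGCA and GCGC with any 1 base N between them), CCGGAAG (an ETS family site, the family of GABPA) and AAGATGGCG (a YY1 site). The sequences are the 250 bases before the start, 5′ to 3′ on the gene's strand, with matches in capitals. For Cox6a1 (chr5:115348959-115349208, minus strand) these are NRF1 matches at 162 and 117 bases and an ETS match on the opposite strand at 16 bases before the start, for Ndufa11 (chr17:56717512-56717761, plus strand) an NRF1 match at 60 bases, and for Cox6b2 (chr7:4753095-4753344, minus strand) none.
Cox6a1: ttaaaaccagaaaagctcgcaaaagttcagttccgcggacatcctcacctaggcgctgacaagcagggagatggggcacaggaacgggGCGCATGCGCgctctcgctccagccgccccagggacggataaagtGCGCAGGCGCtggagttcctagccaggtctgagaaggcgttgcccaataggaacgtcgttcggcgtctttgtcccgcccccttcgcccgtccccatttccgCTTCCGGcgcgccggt
Ndufa11: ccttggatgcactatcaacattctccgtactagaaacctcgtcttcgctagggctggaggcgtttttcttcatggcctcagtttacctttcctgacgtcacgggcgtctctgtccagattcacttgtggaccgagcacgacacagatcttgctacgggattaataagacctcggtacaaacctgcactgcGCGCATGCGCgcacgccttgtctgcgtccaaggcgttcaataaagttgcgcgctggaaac
Cox6b2: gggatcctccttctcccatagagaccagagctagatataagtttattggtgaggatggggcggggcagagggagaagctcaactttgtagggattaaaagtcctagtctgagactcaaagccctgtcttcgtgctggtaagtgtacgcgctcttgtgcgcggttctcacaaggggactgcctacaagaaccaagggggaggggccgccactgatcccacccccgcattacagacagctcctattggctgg
The NRF1 letters were in 18 of the 72 member windows (25.0%) and in 4.60% of all 32851 windows, the ETS letters in 16 (22.2%) against 8.86%, and the YY1 letters in 7 (9.72%) against 1.40%. Any of the 3 was in 26 of the 51 windows of members that fell at sort 2 (51.0%) and in 9 of the 21 windows of other members (42.9%), against 13.55% of all windows. The windows were not matched for base composition. A match describes the letters in the window and is not evidence of binding.

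A few nuclear members did not follow the rest. Across the 9 libraries 68 of the 87 had a Pearson r above 0.9 with the median nuclear profile, a description over libraries that share their scaling, and 6 lay below 0.5. Ndufs1, the largest subunit of complex I (chr1:63143596-63176833, minus strand), ran the other way (r = -0.66): it had 65.7, 96.0 and 89.4 CPM at sort 1 in CD133+, Nestin+ and CD133+Nestin+, 76.5, 107 and 130 CPM at sort 2, and 81.8, 131 and 100.4 CPM at sort 3. It was the one nuclear member higher at sort 2 in all 3 populations, with a log2 difference of 0.30 ± 0.18 that did not pass (limma adjusted p = 0.272). The other 5 were Uqcrfs1 (r = 0.20), Cox6b2 (0.23), Atp5s (0.42), Ndufv1 (0.44) and Cox4i2 (0.49). Atp5s, the coupling factor B of the ATP synthase, had 21.9, 13.8 and 17.0 CPM at sort 1 and 30.2, 12.7 and 10.6 CPM at sort 2, with a log2 difference of -0.10 ± 0.32.

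Mitochondrial genes did not fall with the nuclear ones between sort 1 and sort 2. In limma 0 of the 20 tested passed in either direction, 2 having an unadjusted p under 0.05 (mt-Nd4 and mt-Ts1, both higher), and their median log2 difference was 0.26. The 13 protein-coding genes summed to 19049, 12204 and 15185 CPM at sort 1 in CD133+, Nestin+ and CD133+Nestin+. At sort 2 they summed to 20745, 22537 and 11250 CPM, changes of 8.90%, 84.7% and -25.9%, so the populations did not move together. Of the 20 tested, 6 were higher at sort 2 in all 3 populations, against 23.5% of all genes. The median turned to -0.14 without the sort 2 library of Nestin+ and to -0.0048 without its sort 1 library.

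Members of complex I encoded in the mitochondrion differed among themselves. mt-Nd4, a proton-pumping subunit, had 1355, 527 and 797 CPM at sort 1 and 1618, 1665 and 958 CPM at sort 2 (0.73 ± 0.28, limma adjusted p = 0.102). mt-Nd3, a small membrane subunit, had 94.5, 116 and 95.1 CPM at sort 1 and 87.0, 106 and 15.5 CPM at sort 2 (-0.93 ± 0.49, limma adjusted p = 0.205), its low value resting on the CD133+Nestin+ library. mt-Nd1, mt-Nd2, mt-Nd4l, mt-Nd5 and mt-Nd6 had log2 differences between 0.20 and 0.43. The complex III subunit mt-Cytb went from 3336, 1444 and 2085 CPM to 3672, 4123 and 2123 CPM (0.56 ± 0.29). Of the catalytic core of complex IV, mt-Co1 had a log2 difference of 0.57 ± 0.30, mt-Co2 of 0.26 ± 0.34 and mt-Co3 of -0.57 ± 0.35. The complex V subunits mt-Atp6 and mt-Atp8, at -0.03 ± 0.22 and -0.25 ± 0.22, were among the steadier ones: mt-Atp6 stayed between 1729 and 2900 CPM in all 9 libraries. The 5 tRNAs tested had differences between -0.22 (mt-Tq) and 0.73 (mt-Ts1). mt-Ts1 shares 3 bases with mt-Co1 on the opposite strand. It averaged 419 CPM per kb, against 30.2 for mt-Tl1, the next highest tRNA. No source used here says that counting used strand, so mt-Ts1 and mt-Co1 may not be separate signals. The part of mt-Co1 reads in the level of mt-Ts1 was not tested. Without the sort 2 library of CD133+Nestin+ 3 passed as higher, mt-Co1, mt-Nd4 and mt-Ts1, and with scaling to the listed genes other than mt- genes 2 did, mt-Nd4 and mt-Ts1. With that scaling 2283 of all genes passed as higher. Without that library the share of all genes was not set beside the count, so it cannot be read as particular to these members.

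**Figure D3:**
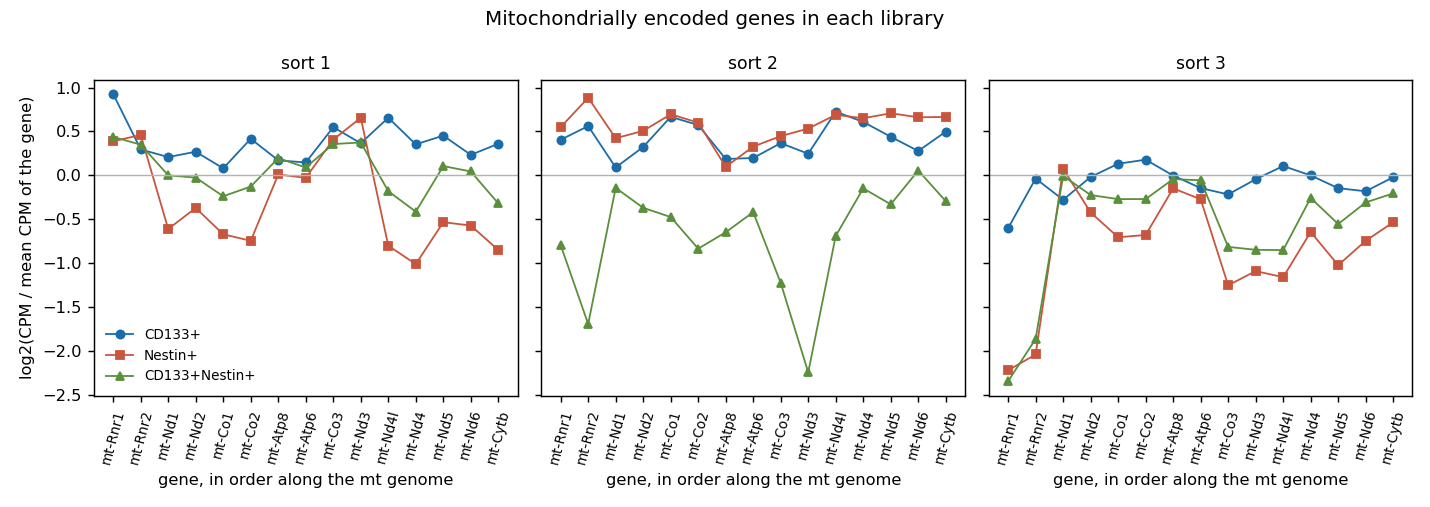
Level of each mitochondrial gene in genome order as log2 of its CPM over the gene's mean across the 9 libraries, with 1 panel per sort number and 1 line per population. The rRNAs mt-Rnr1 and mt-Rnr2 lie far below their means in the Nestin+ and CD133+Nestin+ libraries of sort 3, where mt-Atp6 stays near its mean. In the CD133+Nestin+ library of sort 2 mt-Rnr2 is also far below its mean (869 against 2805 CPM).

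The mitochondrial rRNAs were lower at sort 3 than at sort 1. mt-Rnr1, the RNA of the small mitochondrial ribosomal subunit (chrM:70-1024, plus strand), had 398, 275 and 284 CPM at sort 1 in CD133+, Nestin+ and CD133+Nestin+, 278, 307 and 121 CPM at sort 2 and 138, 45.1 and 41.4 CPM at sort 3. All sort 3 values lay below all sort 1 values, and the log2 difference was -2.28 ± 0.32 (limma adjusted p = 0.01), against 0.396% of all genes called lower and 2.69% called higher in this comparison. The call was lost without the sort 1 library of Nestin+ (limma adjusted p = 0.0867) or its sort 3 library (limma adjusted p = 0.0688). mt-Rnr2, the RNA of the large subunit (chrM:1094-2675, plus strand), had 3443, 3859 and 3575 CPM at sort 1 and 4139, 5173 and 869 CPM at sort 2. At sort 3 it had 2736, 683 and 772 CPM (sort 3 from sort 1 -1.68 ± 0.53, limma adjusted p = 0.125). Its level in CD133+Nestin+ was thus low at sort 2 too. Both rRNAs together equalled 20.2%, 33.9% and 25.4% of the summed mitochondrial mRNA at sort 1. The shares were 21.3%, 24.3% and 8.80% at sort 2 and 19.2%, 6.79% and 6.28% at sort 3. The share in CD133+ was thus nearly level, and that in CD133+Nestin+ was low at both sort 2 and sort 3. Per kilobase mt-Rnr1 averaged 220 and mt-Rnr2 1773 CPM over the 9 libraries, less than mt-Atp6 at 3392. The part of library preparation in these rRNA levels was not tested, so they may not reflect the rRNA content of the cells. Of the mRNAs, mt-Co3 (-1.20 ± 0.35, limma adjusted p = 0.107) and mt-Nd3 (-1.11 ± 0.49, limma adjusted p = 0.249) had the largest differences, and 8 of the 13 were lower at sort 3 in all 3 populations, against 24.8% of all genes. Without the sort 2 library of CD133+Nestin+ 4 mitochondrial genes passed as lower, mt-Rnr2, mt-Co3 and mt-Nd3 beside mt-Rnr1. The number of all genes that passed in that fit is given in the next paragraph.

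At sort 3 the nuclear members lay between the other sorts. The sums were 23.4%, 28.2% and 27.9% below sort 1 in CD133+, Nestin+ and CD133+Nestin+. In limma 0 of 87 passed, against 0.396% of all genes that fell and 2.69% that rose; 35 had an unadjusted p under 0.05, all lower. The median was -0.46, and 76 (87.4%) were lower in all 3 populations, against 24.8% of all genes. Without the sort 2 library of CD133+Nestin+, which enters through the shared spread, 36 passed as lower (2184 genes passed in all, in either direction). With each library centred on its median gene 6 did (474 genes in all): Atp5d, Atp5g3, Cox6a1, Cox6b1, Cox8a and Ndufa11. Between sort 3 and sort 2, 0 nuclear and 0 mitochondrial members passed in limma, as did 0.0% of all genes; 28 nuclear members had an unadjusted p under 0.05, all higher, and 6 mitochondrial ones, all lower. All 87 nuclear differences were above 0, with 52 (59.8%) higher in all 3 populations against 22.7% of all genes. These comparisons share libraries.

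The balance between the genomes was different at sort 2. The log2 ratio of summed mitochondrial mRNA to summed nuclear subunit CPM was 0.56, -0.06 and 0.20 at sort 1 in CD133+, Nestin+ and CD133+Nestin+, 1.20, 1.57 and 1.12 at sort 2, and 0.60, 0.23 and 0.45 at sort 3. Every sort 2 value lay above all 6 others. The mean difference of sort 2 from sort 1 was 1.06 (0.64, 1.64 and 0.92 in the 3 populations), against a pooled SD of 0.25 within sorts, and that of sort 3 from sort 1 was 0.19. An exact permutation test of 3 libraries against 3 cannot go below p = 0.10, and none is given. The ratio was highest at sort 2 within each population for each of complexes I, III, IV and V: its mean went from -0.27 to 0.94 for complex I, from 0.45 to 1.92 for complex III, from 1.47 to 2.46 for complex IV and from -0.15 to 0.65 for complex V. With the nuclear pseudogene copies of mitochondrial genes counted as mitochondrial, the difference was 0.99.

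**Figure D4:**
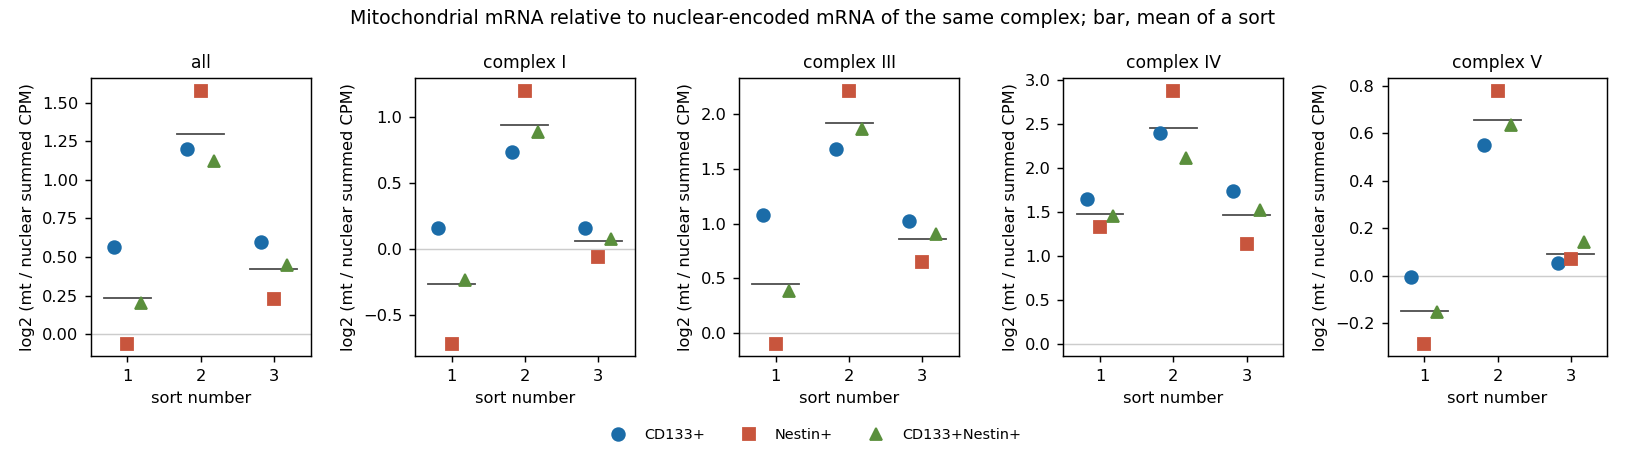
Log2 ratio of summed mitochondrial mRNA to summed nuclear subunit CPM, for all subunits and for complexes I, III, IV and V, by sort number; each point is 1 library, coloured by population. The sort 2 libraries (1.12 to 1.57 for all subunits) lie above those of sort 1 (-0.06 to 0.56) and sort 3 (0.23 to 0.60).

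Median correlations over the libraries were lower between the 2 sets of genes than within each. Over the 9 libraries the median Pearson r between pairs of nuclear members was 0.88 (3741 pairs), between pairs of mitochondrial mRNAs 0.76 (78 pairs) and between the sets 0.11 (1131 pairs), as a description. The highest of a nuclear member's 9 values was in a sort 1 library for 79 of 87, whereas 9 of the 13 mitochondrial mRNAs were highest in the Nestin+ library of sort 2. Counts and correlations of this kind were not taken over all genes, so how far they are particular to these members is unknown.

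Between populations 1 member passed in the fit without sort number as a block, whose spread includes the differences between sorts. Cox6b2, the isoform of a complex IV subunit best known from testis (ENSMUSG00000051811, chr7:4751792-4753094, minus strand), had 30.4, 66.9 and 35.8 CPM in CD133+ at sorts 1 to 3, 5.05, 3.98 and 4.41 CPM in Nestin+, and 14.9, 8.95 and 18.8 CPM in CD133+Nestin+. The 3 populations did not overlap. The log2 difference of Nestin+ from CD133+ was -2.97 ± 0.36 (limma adjusted p = 0.000467), and the call held with each library left out in turn (-3.20 to -2.64). It was the 1 nuclear member of 87 that fell in that comparison, with 0 that rose, against 9.42% of all genes that fell and 2.45% that rose. With sort number as a block Cox4i2 fell as well, and 13.1% of all genes then fell and 6.06% rose. CD133+Nestin+ had differences of -1.55 ± 0.36 from CD133+ (limma adjusted p = 0.0528, and 0.0419 with sort number as a block, where 3.69% of all genes fell and 1.12% rose) and of 1.42 ± 0.36 from Nestin+ (limma adjusted p = 0.0646, and 0.0289 without its sort 2 library). In the authors' deposited table Cox6b2 was likewise the 1 member of 115 under a false discovery rate of 0.05 for Nestin+ against CD133+, with a ratio of 0.101 and a rate of 0.000923; 9.07% of the table's genes were under that rate.

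**Figure D5:**
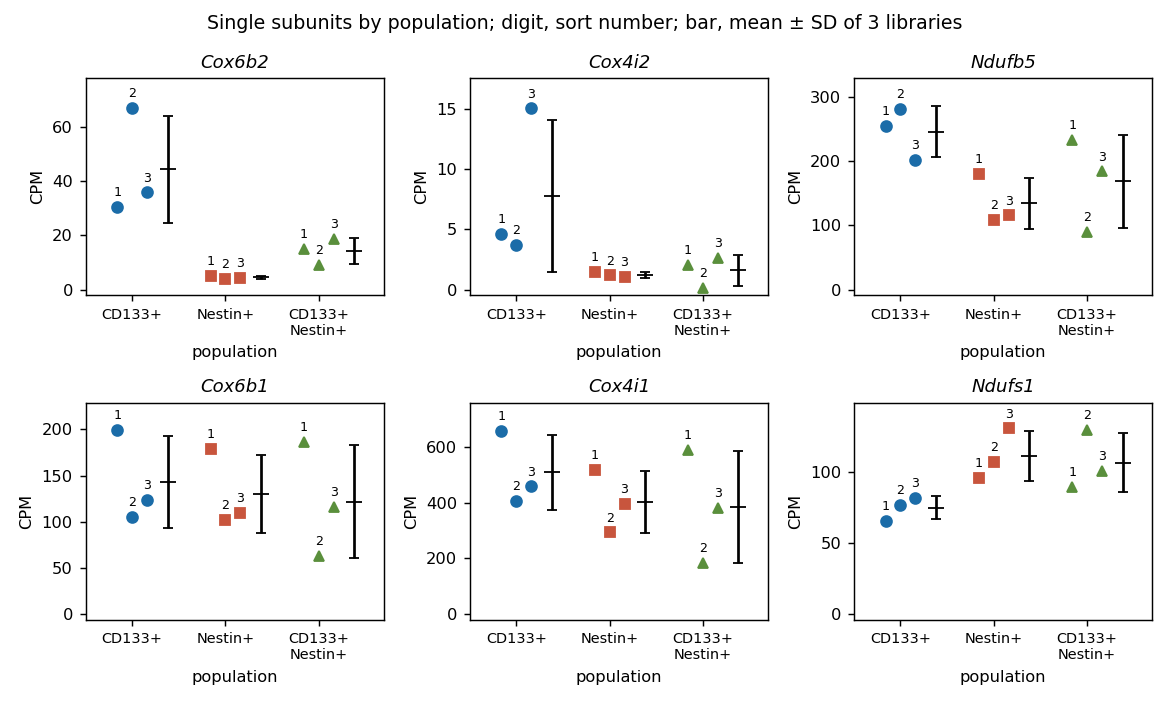
CPM of Cox6b2, Cox4i2, Ndufb5, Cox6b1, Cox4i1 and Ndufs1 by population; each digit is 1 library and gives its sort number, and bars are the mean ± SD of 3 libraries. Cox6b2 averages 44.4 ± 19.7 CPM for CD133+, 4.48 ± 0.54 for Nestin+ and 14.2 ± 4.97 for CD133+Nestin+, whereas its paralog Cox6b1 overlaps between populations.

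Cox6b1, the paralog found in most tissues, was higher than Cox6b2 in each library (63.3 to 199 CPM) and overlapped between populations. The gap was smallest in the CD133+ library of sort 2, with 105 CPM of Cox6b1 and 66.9 CPM of Cox6b2. Cox4i2, the isoform of Cox4 best known from lung and from oxygen-sensing cells, had 4.60, 3.68 and 15.0 CPM in CD133+, 1.48, 1.17 and 1.02 CPM in Nestin+, and 2.02, 0.166 and 2.62 CPM in CD133+Nestin+. All CD133+ values lay above all others, and its difference of -1.76 ± 0.53 between Nestin+ and CD133+ passed with sort number as a block (limma adjusted p = 0.0166) but not without it (0.0553). Cox4i1 was between 183 and 658 CPM. Of the other isoform sets, Cox7a1, the heart and muscle form, had 0.48 to 1.23 CPM where Cox7a2 had 41.6 to 122 and Cox7a2l 99.4 to 180.3. Of the genes for the c-ring of the ATP synthase, Atp5g3 had 100.9 to 245 CPM, Atp5g1 17.3 to 59.7 and Atp5g2 0.237 to 4.79.

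Markers of other cells moved with the same contrast. From CD133+ to Nestin+ the list of ependymal genes fell in 11 of 12, with sums of 1473 to 2958 CPM in the CD133+ libraries, 309 to 394 in Nestin+ and 1599 to 1866 where both markers were used. Microglia genes fell in 12 of 12 (1005 to 2915 CPM, then 38.2 to 114, with 45.1 to 343 in CD133+Nestin+), endothelial genes in 5 of 5 (451 to 887, then 15.4 to 25.5, with 27.0 to 44.6) and mural and fibroblast genes in 6 of 7 (851 to 1651, then 71.4 to 105, with 113 to 185). Erythroid genes fell in 5 of 5, and genes of oligodendrocyte precursors rose in 6 of 8 (70.5 to 151, then 685 to 1278). Of all genes 9.42% fell and 2.45% rose. No marker of these lists was at 0 in any library. The part of these cells in the values of Cox6b2 and Cox4i2 was not tested, and in such bulk samples fewer cells of a type and less RNA per cell cannot be told apart.

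None of the remaining members passed between populations in the fit without a block. In simulated data with 200 changed genes that fit recovered 9% of changes of 1 on the log2 scale between Nestin+ and CD133+. In the data 1520 genes were called lower, so the adjusted threshold differed and the 9% is not a recovery rate for the data. From CD133+ to Nestin+ the median log2 difference was -0.16 for nuclear and -0.34 for mitochondrial members, and -0.02 for all genes. In limma 0 mitochondrial members passed, and 0 had an unadjusted p under 0.05 (2 with sort number as a block, both lower). All 13 mRNAs had differences below 0, from -0.90 ± 0.42 for mt-Nd4l to -0.04 ± 0.33 for mt-Nd1, but 2 of 13 were lower at all 3 sorts, against 31.7% of all genes. Ndufb5, a membrane subunit of complex I, had 255, 281 and 202 CPM in CD133+ and 180.4, 108 and 116 CPM in Nestin+ (-0.89 ± 0.36, limma adjusted p = 0.158); 616 of its exon bases overlap the antisense gene Mrpl47, and no source used here says that counting used strand. With the sort 2 library of CD133+Nestin+ left out, 4 nuclear members passed as lower, Atp5s, Cox4i2 and Ndufb5 beside Cox6b2, and with the block added to this 8 passed, 6 lower and 2 higher. The share of all genes that passed in these fits was not set beside the counts, so they cannot be read as particular to the members.

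CD133+Nestin+ differed from CD133+ in 0 nuclear and 0 mitochondrial members in limma, against 2.12% of all genes that fell and 0.297% that rose. At an unadjusted p under 0.05 were 2 nuclear and 1 mitochondrial member, all lower. With sort number as a block these were 8 nuclear members lower and 1 higher, and 4 mitochondrial members lower. The 2 rRNAs had differences of -1.34 and -1.13, which did not pass. The nuclear median of -0.34 rested on the sort 2 library of CD133+Nestin+, without which it was 0.09. Of the mitochondrial mRNAs 9 of 13 were lower at all 3 sorts, against 24.2% of all genes. From Nestin+ to CD133+Nestin+ 0 members passed in limma, against 2.87% of all genes that rose and 0.254% that fell (4.97% and 1.12% with the block), with 1 nuclear member at an unadjusted p under 0.05. At all 3 sorts 10 nuclear members were lower and 4 higher, against 20.4% and 21.9% of all genes. The log2 mitochondrial to nuclear ratio differed from that of CD133+ by -0.21 in Nestin+ and -0.20 in CD133+Nestin+, against a pooled SD of 0.61 within populations, which includes the differences between sorts. Compared sort by sort, Nestin+ gave -0.62, 0.37 and -0.37 and CD133+Nestin+ -0.36, -0.08 and -0.15, so the first changed sign and the second did not.

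Genes around the respiratory chain were read from lists of the pathway. Between sort 1 and sort 2, where 8.98% of all genes fell and 8.34% rose, 17 of 82 mitochondrial ribosomal protein genes fell and 0 rose (median -0.55), led by Mrpl17 (-0.89, limma adjusted p = 0.0134). Of 9 carriers and cytochrome c genes 3 fell and 0 rose: Slc25a5, an ADP/ATP exchanger, went from 1272 ± 214 to 525 ± 215 CPM (-1.33 ± 0.22, limma adjusted p = 0.00843), and Slc25a4 and the pyruvate carrier subunit Mpc1 fell by 0.83 and 0.76. Of 14 genes of the tricarboxylic acid cycle Cs, citrate synthase, and Suclg2 fell. Assembly factors were mixed: of 50, 6 fell and 1 rose (median -0.40), with the complex III factors Uqcc2 and Uqcc3 each at -1.24 and Coa3, a complex IV factor, at -0.82, while Cox11, which delivers copper to complex IV, rose by 1.84 ± 0.42 (limma adjusted p = 0.0207) and was also higher at sort 3 (2.20 ± 0.42, limma adjusted p = 0.0276). Of 30 genes for mitochondrial DNA and RNA, Hsd17b10, a subunit of the mitochondrial RNase P, fell (-0.95 ± 0.17, limma adjusted p = 0.011) and Pnpt1, a mitochondrial RNA exonuclease, rose (0.75 ± 0.23, limma adjusted p = 0.0478). Of 10 regulators of mitochondrial biogenesis 0 passed in limma, with 2 at an unadjusted p under 0.05, 1 in each direction. From CD133+ to Nestin+ 3 of the 50 assembly factors fell, against 9.42% of all genes, and these act on complex I: Ndufaf3, from 182 ± 47.4 to 40.0 ± 8.57 CPM (-2.15 ± 0.38, limma adjusted p = 0.00387), Ndufaf7 (-0.92) and Nubpl (-1.27).

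Several other measures moved with sort number. Nuclear-retained RNAs rose between sort 1 and sort 2 in 7 of 7, their sum going from 947 to 1348 CPM at sort 1 to 3454 to 8088 at sort 2 and 3465 to 4154 at sort 3. Malat1 was 1094 ± 206, 5149 ± 2292 and 3508 ± 298 CPM, and Neat1 0.94 ± 0.20, 27.6 ± 9.99 and 17.4 ± 2.59 CPM, at sorts 1, 2 and 3. The listed genes took 87.4% ± 0.19, 71.4% ± 5.95 and 79.3% ± 1.70 of the library total. Microglia genes fell in 11 of 12 between sort 1 and sort 2, and neural stem and radial glia genes in 4 of 14. Of all genes 8.98% fell and 8.34% rose in that comparison. Exon length moved with the change too: nuclear members had a median of 1478 exon bases against 3950 for all genes. Among the shortest 20% of all genes the median difference of sort 2 from sort 1 was -0.37, with 19.0% called lower, and its 52 nuclear members had -1.02; in the next 20% these were -0.18 and, for 21 members, -0.81. In the middle 20% they were -0.12 and, for 9 members, -0.87, and in the next 20% 0.0023 and, for 4 members, -0.76, so the members lay below the genes of their length in these 4 classes. Ndufs1, with 8086 bases the 1 nuclear member in the longest 20%, had 0.30 where those genes had a median of 0.21. The part of these measures in the lower nuclear subunit levels was not tested, and sort number and passage number cannot be told apart.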

How the data were processed

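Total RNA from 9 sorted samples was sequenced. Tools listed in the submitters' processing notes, with no role or order, are Partek 8.0, STAR 2.5.3a, limma and bcl2fastq, and the build is mm10. Values of the authors' deposited expression table were read as CPM with an offset of 0.0001, inferred from column sums under 1e+06. They are not multiples of 1 read's worth, so the depth behind each value is unknown. The deposited table of the authors' comparisons gives p-values (false discovery rates) and ratios, used only where named.

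Rows below 1 CPM in all but 2 or fewer libraries were removed, 2186 of 18329. limma 3.58.1 in R 4.3.3 (trended, robust) was fitted to log2(CPM + 1) of the other 16143, so fold changes of low genes are understated. Populations were compared without a block, with 6 residual degrees of freedom, and sorts with population as a second term, with 4. Benjamini-Hochberg adjustment ran over all genes tested, at 0.05. Same-numbered libraries deviated together (r from 0.204 to 0.73 in 9 pairs, from -0.527 to 0.314 in 18 others). The labels give the shared number but do not state that such libraries are pairs. In 8 of 9 libraries the closest library of each other population had the same number. The exception was Nestin+ of sort 3, with r = 0.314 to CD133+Nestin+ of sort 2 and 0.224 to that of sort 3. A fit of the populations with sort number as a block was therefore run as an alternative. In data simulated on these 16143 genes, 200 genes were changed and the noise was independent between libraries. There the sort 2 against sort 1 fit recovered 22% of genes changed by 1 on the log2 scale and 79% of those changed by 2. The Nestin+ against CD133+ fit recovered 9% and 64%. More genes were called in the data (1450 lower at sort 2 and 1520 lower in Nestin+), which makes the adjusted threshold less strict. These shares are therefore not recovery rates for the data.

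Gene positions and exon lengths are from GENCODE M21 on GRCm38. Named are all mitochondrial mRNAs and rRNAs, up to 4 called members per complex and comparison by smallest adjusted p, the extremes per kb, paralogous isoforms, and up to 4 called genes of each pathway list; Ndufs1, Uqcrfs1, Atp5s, Ndufv1 and Ndufb5 were singled out after their values were seen. Members and lists were chosen with earlier results of these data known. Alternatives were another pseudocount (0.1), no filter, 2 other scalings, the block, other forms of the ratio and leaving out each library.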

Additional observations from a re-analysis of the deposited data

How the results depend on the processing

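With sort number as a replicate block, 2 nuclear members were called between Nestin+ and CD133+ (Cox6b2 and Cox4i2) and 1 between CD133+Nestin+ and CD133+ (Cox6b2), and no other member's call changed. With the block and without the sort 2 library of CD133+Nestin+, chosen after seeing the data, 8 nuclear and 2 mitochondrial members were called between Nestin+ and CD133+ and 1 between CD133+Nestin+ and Nestin+. Scaled to listed genes other than mt- genes, sort 2 against sort 1 had 31 nuclear and 2 mitochondrial calls; centred on the median gene, sort 3 against sort 1 had 6 nuclear calls. The mitochondrial to nuclear ratio of CD133+Nestin+ against Nestin+, 0.0095, turned to -0.088 with mt- rRNAs and tRNAs and to -0.012 with pseudogene copies, the latter chosen after seeing the data. With each library left out in turn, calls ranged from 1 to 4 nuclear and 0 to 1 mitochondrial (Nestin+ against CD133+), 0 to 1 nuclear (CD133+Nestin+ against Nestin+), 0 to 65 nuclear and 0 to 3 mitochondrial (sort 2 against sort 1), and 0 to 36 nuclear and 0 to 4 mitochondrial (sort 3 against sort 1). Where no share of all genes is given for a fit above, its count cannot be read as particular to the members. The ratio differences ranged from -0.70 to 0.12 (Nestin+ against CD133+), -0.46 to 0.011 (CD133+Nestin+ against CD133+), -0.31 to 0.51 (CD133+Nestin+ against Nestin+), 0.80 to 1.24 (sort 2 against sort 1), 0.022 to 0.34 (sort 3 against sort 1) and -1.05 to -0.61 (sort 3 against sort 2), so those between populations changed sign. The cause was not tested. Without read totals, what depth limits cannot be given.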
